A study of Homo sapiens with 4 samples.

Results

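The ADAM sheddases ADAM10, ADAM17, ADAM9, ADAM15 and ADAM8 and 3 of their membrane partners, TSPAN14, TSPAN15 and RHBDF2, were followed in oral cancer cells depleted of STAU1. These 8 genes were chosen by name and function and make up 8 of the 66963 genes in the count table. All 8 passed the filter on low counts that left 14303 genes for testing. The study grew SAS, a human oral squamous carcinoma line, in DMEM with 10% FBS and delivered shRNAs by viral infection with the pLKO system. The Ctrl group (2 libraries) received shLuc, an shRNA against luciferase, and the shSTAU1 group (2 libraries) an shRNA against STAU1, a double-stranded RNA-binding protein that acts in mRNA transport and decay. The genotype of both groups was given as WT, and 1 shRNA was used per group, so an effect of that hairpin on other transcripts cannot be told apart from the loss of STAU1. The source and cell line labels name C3H 10T1/2, a mouse fibroblast line, whereas the organism is given as human and the growth protocol names SAS.

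ADAM sheddases are membrane-anchored metalloproteases that cut the outer part of other membrane proteins close to the cell surface, which frees growth factors, adhesion molecules and receptor fragments. They are made as inactive precursors whose prodomain is removed by proprotein convertases, and the stub that remains after shedding is often cut again inside the membrane by gamma-secretase. ADAM10 is the main protease for Notch receptors and classical cadherins, ADAM17 for TNF and ligands of the EGF receptor, and both depend on partner proteins to leave the endoplasmic reticulum: certain tetraspanins for ADAM10 and the iRhoms for ADAM17.

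The libraries were exome-capture RNA-seq libraries (TruSeq RNA Exome) of total RNA. The library totals lay between 32206655 and 36301574 counts, and replicates of one group differed by more than counting noise (chi-square per degree of freedom 23.4 within Ctrl and 56.4 within shSTAU1). The labels do not say that the 2 libraries of a group came from separate cultures, so p-values measure only the spread between these libraries. STAU1, the targeted gene, was counted 8362 and 8218 times under shLuc and 1449 and 1467 times under shSTAU1, which left 16.6% of the Ctrl level (log2 fold change -2.59, SE 0.13, adjusted p = 0.00103 by edgeR's quasi-likelihood test with Benjamini-Hochberg adjustment). All 10 squamous epithelial markers were at 10 CPM (counts scaled to a common library size) or more in every library, while 4 of 8 fibroblast markers and 3 of 7 leukocyte and endothelial markers had at most 3 counts in any library. Summed marker levels were 8938 to 9519 CPM in Ctrl and 10366 to 13538 CPM in shSTAU1 for the squamous list, 17.9 to 22.8 and 10.2 to 11.1 CPM for the fibroblast list, and 15.4 to 18.2 and 8.15 to 18.2 CPM for the leukocyte and endothelial list. The part of these marker differences in the results was not tested, and in bulk RNA fewer cells of a kind and less RNA per cell cannot be told apart. The SNX5 gene, host of the circular RNA that the study examined, had a log2 fold change of -0.12 (SE 0.12, edgeR adjusted p = 0.603), and gene counts do not separate its circular from its linear RNA.

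Among the members, ADAM10 is the transcript that the study placed downstream of the circular RNA through the microRNA miR-323a-5p. The study reported more of this circular RNA after STAU1 knockdown. It also proposes that the circular RNA maintains ADAM10 expression, from RNA and protein measurements in other experiments. That chain of steps was not tested here. Sequences that could pair are shown first. The mature microRNA (RefSeq, GRCh38.p14, chr14:101025747-101025768, plus strand) is given with its seed, bases 2 to 8, in capitals. The other line is a place in the 3′ UTR of ADAM10 (GENCODE 29, GRCh38, minus strand, chr15:58597127-58597156) that holds the reverse complement of that seed, GACCACC, in capitals.
hsa-miR-323a-5p: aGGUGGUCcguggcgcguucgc
ADAM10 site: ctaggaggctcGACCACCtcaacattggag
This match lies at bases 402 to 408 of an annotated 3′ UTR of 8740 bases. None of the other 7 members holds GACCACC, read on the transcript strand, in the 3′ UTR of its reference transcript. Their UTRs run from 256 bases in ADAM15 to 15147 bases in TSPAN14. Of the 11831 tested genes with an annotated 3′ UTR, 807 (6.82%) hold it at least once. Among the 1075 genes whose UTR is 0.5 to 2 times as long as that of ADAM10, 232 (21.6%) hold it. In that length class the median log2 fold change was -0.09 with and -0.07 without the word, against 0.03 over the 11831 tested genes with an annotated 3′ UTR. A match by itself describes the letters and does not show a site of action. In the study a miR-323 mimic lowered the activity of a reporter with the ADAM10 3′ UTR. Mutating the putative binding sequence in that reporter removed the effect. Whether that sequence is the place printed above was not checked here. The microRNA itself was not measured by these libraries, whose capture kit targets coding exons. Its gene MIR323A had 0 counts in all 4, which gives no level of the microRNA.

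ADAM9 was the only member past the threshold of an adjusted p under 0.05, and it was lower in shSTAU1 (1 of 8 members called). Over all tested genes 2.60% were called, 1.48% lower and 1.13% higher. ADAM10 fell short of the threshold with a similar size of difference, and ADAM17 had a fold change above 0 that did not pass the test. The 5 members ADAM10, ADAM9, ADAM15, ADAM8 and TSPAN14 had both shSTAU1 libraries below both Ctrl libraries, and no member had both above. Such separation was common in these data: 56.6% of all tested genes had groups that did not overlap, 28.0% with shSTAU1 lower. The median log2 fold change of the 8 members was -0.38, and 6 of them had a value below 0.

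**Figure D1:**
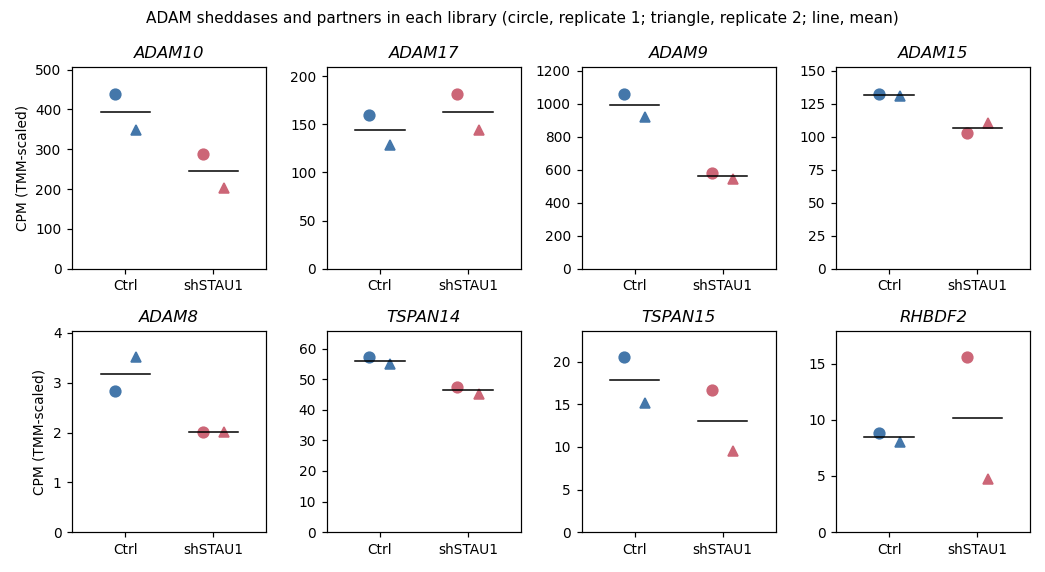
Level of each of the 8 members in each library, in TMM-scaled CPM (vertical axis, starting at 0), for Ctrl (blue) and shSTAU1 (red); circles are replicate 1, triangles replicate 2 and lines group means. ADAM9 lies at 918 and 1059.8 CPM in Ctrl and at 542 and 579.7 CPM in shSTAU1, while the ADAM17, TSPAN15 and RHBDF2 groups overlap.

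ADAM10 (ENSG00000137845, chr15:58588807-58749978, minus strand, hg38) is the protease that opens Notch signalling and sheds cadherins and APP. Its counts were 14779 and 11414 in Ctrl and 9989 and 7202 in shSTAU1. Scaled by the trimmed mean of M-values (TMM), these were 439 and 349 CPM in Ctrl against 287 and 204 CPM in shSTAU1. Both shSTAU1 libraries lay below both Ctrl libraries, but the gap between the groups (287 to 349 CPM) was narrower than the gap inside either group. The group means of 394 ± 64.3 CPM (Ctrl) and 245 ± 58.8 CPM (shSTAU1; SD, n = 2) put the knockdown at 62.3% of Ctrl. The log2 fold change was -0.68 (SE 0.19, 95% interval -1.13 to -0.23, unadjusted p = 0.00836), and edgeR's quasi-likelihood test gave an adjusted p of 0.0893 after Benjamini-Hochberg adjustment over all tested genes. DESeq2 called the same difference (log2 fold change -0.69, adjusted p = 0.00975). A correction of the libraries for transcript length and GC content brought it to -0.55 (edgeR adjusted p = 0.151). With genes of low count kept in the test it was -0.69 (edgeR adjusted p = 0.189). Without shSTAU1 replicate 1 the fold change was -0.95, and without Ctrl replicate 1 it was -0.52. Each of these fits leaves 1 library in a group, so its spread comes from the other group alone. ADAM10 overlaps 6 other annotated genes, none of which had more than 235 counts in a library, and the sources used here do not say whether counting used strand.

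ADAM9 (ENSG00000168615, chr8:38996869-39105144, plus strand) is a widely expressed sheddase that can cleave APP and the EGF receptor ligand HB-EGF and can also cut ADAM10 itself. The Ctrl libraries held 35639 and 30054 ADAM9 counts, and the shSTAU1 libraries 20182 and 19167. At 1059.8 and 918 CPM in Ctrl against 579.7 and 542 CPM in shSTAU1, its groups were further apart than the libraries inside them. The mean fell from 989 ± 100.3 CPM to 561 ± 26.4 CPM (SD, n = 2 each), or 56.7% of Ctrl. The log2 fold change was -0.82 (SE 0.13, 95% interval -1.12 to -0.51, edgeR quasi-likelihood adjusted p = 0.0357). The call was lost without Ctrl replicate 1 (log2 fold change -0.73, edgeR adjusted p = 0.116) and when genes of low count were kept in the test (adjusted p = 0.0988). Every one of these settings kept ADAM9 lower in shSTAU1. ADAM9 carries no copy of the miR-323a-5p seed match printed above in the 3′ UTR of its reference transcript. A part of the microRNA in the values of any member was not tested.

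ADAM17 (ENSG00000151694, chr2:9488486-9556732, minus strand), also called TACE, sheds TNF and amphiregulin. It had 160 and 129 CPM in Ctrl and 182 and 144 CPM in shSTAU1, so that replicate 2 of shSTAU1 lay between the Ctrl libraries. The log2 fold change was 0.17 with a 95% interval of -0.22 to 0.57 (edgeR adjusted p = 0.557). This interval leaves room for a fall of up to 0.22 and a rise of up to 0.57 on the log2 scale. Without shSTAU1 replicate 1 the fold change was -0.01.

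ADAM15 (ENSG00000143537, chr1:155050566-155062775, plus strand) carries an integrin-binding RGD motif in its disintegrin domain. It was at 133 and 131 CPM in Ctrl and at 103 and 110 CPM in shSTAU1, replicates closer to each other than those of ADAM10, ADAM17 or ADAM9 in Ctrl. The log2 fold change was -0.31 (SE 0.12, 95% interval -0.60 to -0.02, unadjusted p = 0.0406, edgeR adjusted p = 0.183). ADAM8 (ENSG00000151651, chr10:133262403-133276868, minus strand), a protease best known from leukocytes and found in several carcinomas, had only 95 and 115 counts in Ctrl and 70 and 71 in shSTAU1. Its log2 fold change of -0.66 had a wide interval of -1.41 to 0.10 (edgeR adjusted p = 0.256), so neither a fall nor a small rise was separated from 0. An unadjusted p under 0.05 was reached by 3 members (ADAM10, ADAM9 and ADAM15, all lower), against 11.6% of all tested genes in the lower direction.

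The partners came next. TSPAN14 (ENSG00000108219, chr10:80454166-80533123, plus strand) and TSPAN15 (ENSG00000099282, chr10:69451473-69507669, plus strand) are tetraspanins that bind ADAM10, bring it to the cell surface and steer its choice of substrate. TSPAN14 lay at 57.2 and 54.9 CPM in Ctrl and at 47.4 and 45.3 CPM in shSTAU1. Its log2 fold change was -0.27 (95% interval -0.59 to 0.04, edgeR adjusted p = 0.254), and a correction of the libraries for transcript length and GC content brought it to -0.10. TSPAN15 had 20.5 and 15.2 CPM in Ctrl and 16.7 and 9.48 CPM in shSTAU1, with overlapping groups and a log2 fold change of -0.45 (95% interval -1.13 to 0.23, edgeR adjusted p = 0.375). Without shSTAU1 replicate 1, which leaves 1 library in that group, the log2 fold change of TSPAN15 was -0.92.

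RHBDF2 (ENSG00000129667, chr17:76470891-76501790, minus strand) encodes iRhom2, the inactive rhomboid that escorts ADAM17 out of the endoplasmic reticulum. The Ctrl libraries were close, at 8.86 and 8.03 CPM, whereas the shSTAU1 libraries stood at 15.6 and 4.75 CPM on either side of them. The 3.27-fold gap between replicates of one group was the widest among the members, and the fold change followed whichever shSTAU1 library was kept. It was 0.27 on the log2 scale with both (95% interval -0.84 to 1.37, edgeR adjusted p = 0.764), -0.83 without shSTAU1 replicate 1 and 0.86 without shSTAU1 replicate 2. No direction can be given for RHBDF2.

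**Figure D2:**
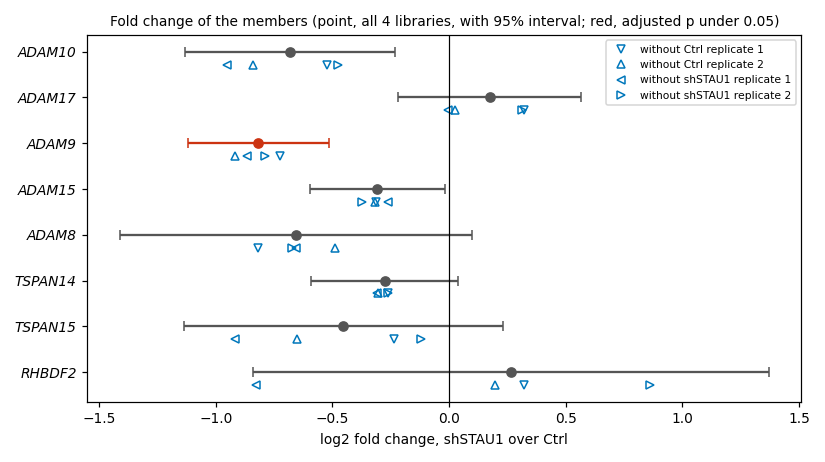
Log2 fold change (shSTAU1 over Ctrl, horizontal axis) of the 8 members from all 4 libraries with the 95% interval, in red where the adjusted p was under 0.05, and the fold change when 1 library was left out (open triangles). ADAM9 stays between -0.92 and -0.73, ADAM10 between -0.95 and -0.48, and RHBDF2 runs from -0.83 to 0.86.

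Replicates differed in a common direction in most members. In each group 7 of the 8 were lower in replicate 2 than in replicate 1, the exception being ADAM8 in Ctrl and ADAM15 in shSTAU1. Some of these differences were very small, at -0.018 for ADAM15 in Ctrl and -0.0012 for ADAM8 in shSTAU1 on the log2 scale. Over all tested genes 50.3% in Ctrl and 50.6% in shSTAU1 were lower in replicate 2, with a median absolute difference of 0.21 and 0.28 on the log2 scale. On that scale ADAM10 differed between replicates by -0.33 in Ctrl and -0.49 in shSTAU1 (replicate 2 minus replicate 1), both larger in size than the median, and ADAM9 by -0.21 and -0.10.

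Levels of different genes were set side by side per kilobase of annotated exons. ADAM9 was the most abundant member in Ctrl at 143 ± 14.5 CPM per kb, followed by ADAM10 at 24.4 ± 3.97, ADAM15 at 20.0 ± 0.18 and ADAM17 at 13.4 ± 2.06 CPM per kb (SD, n = 2). The partners were lower, with TSPAN15 at 6.76 ± 1.43, TSPAN14 at 3.13 ± 0.089 and RHBDF2 at 1.22 ± 0.085 CPM per kb, and ADAM8 came last at 0.663 ± 0.10. In shSTAU1, ADAM9 stayed first at 81.2 ± 3.82 CPM per kb. Per kb of exons ADAM15 (16.2 ± 0.75), ADAM10 (15.2 ± 3.64) and ADAM17 (15.1 ± 2.50) could not be ordered, since their libraries overlapped. Of the summed level of the 5 ADAM genes per kb of exons, ADAM9 made up 70.9% and 71.0% in Ctrl and 62.3% and 64.5% in shSTAU1. ADAM17 made up 6.88% and 6.40% against 12.6% and 10.99%. The capture kit targets coding exons and the exon length of TSPAN14 (17888 bases, of which 839 are coding) and ADAM10 (16168, 2564 coding) is mostly UTR, so the levels were also taken per kb of coding sequence. ADAM9 (378 ± 38.4 CPM per coding kb in Ctrl) and ADAM10 (154 ± 25.1) again came first, and TSPAN14 moved up to 66.8 ± 1.89, above ADAM17 (53.7 ± 8.24) and ADAM15 (48.4 ± 0.43). On this measure ADAM10 (112 and 79.5), ADAM17 (67.7 and 53.5) and ADAM15 (37.9 and 40.4) lay in that order in shSTAU1 without overlap. The share of ADAM9 per coding kb was 59.1% and 60.1% in Ctrl and 50.4% and 54.3% in shSTAU1. That of ADAM17 was 8.68% and 8.20% against 15.4% and 14.0%.

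The balance between members was also read inside each library, where scaling between libraries cancels. These 9 ratios were chosen after the values had been seen, and with 2 libraries against 2 an exact permutation test cannot go below p = 0.333, so they are given without a test. The log2 ratio of ADAM10 to ADAM17 counts was 1.46 and 1.44 in Ctrl and 0.66 and 0.50 in shSTAU1, which is tighter inside each group than either gene alone. For ADAM9 to ADAM17 the log2 ratios were 2.73 and 2.84 in Ctrl and 1.67 and 1.92 in shSTAU1. Both ratios were lower in shSTAU1 without overlap, with differences of -0.87 and -0.99. ADAM15 to ADAM17 was also lower without overlap, at -0.27 and 0.03 in Ctrl and -0.82 and -0.39 in shSTAU1 (difference -0.48). The log2 ratio of ADAM10 to ADAM9 did not separate the groups, at -1.27 and -1.40 in Ctrl and -1.01 and -1.41 in shSTAU1. Against ADAM15, ADAM9 separated the groups (2.9996 and 2.81 in Ctrl, 2.49 and 2.30 in shSTAU1) and ADAM10 did not (1.73 and 1.41 against 1.48 and 0.89). Of the partners, TSPAN14 stood higher relative to ADAM10 in both shSTAU1 libraries (-2.94 and -2.67 in Ctrl, -2.60 and -2.17 in shSTAU1), whereas TSPAN15 to ADAM10 and RHBDF2 to ADAM17 overlapped.

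**Figure D3:**
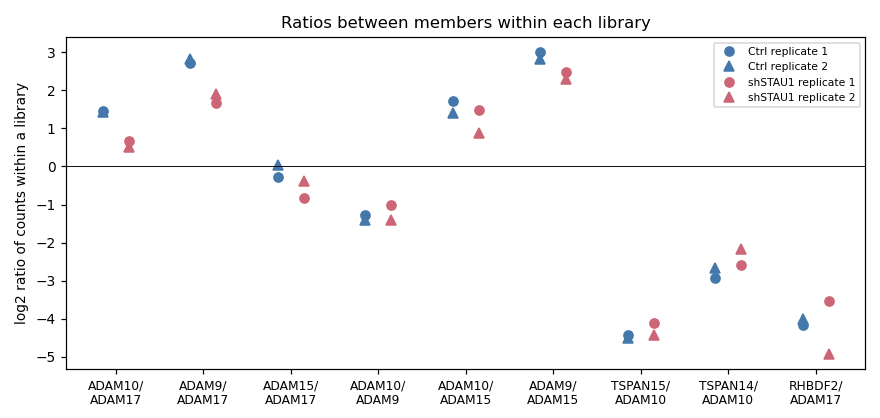
Log2 ratio of the counts of pairs of members (vertical axis) within each library, for Ctrl (blue) and shSTAU1 (red); circles are replicate 1 and triangles replicate 2. The ratios of ADAM10 and of ADAM9 to ADAM17 lie lower in both shSTAU1 libraries, while the ratio of ADAM10 to ADAM9 overlaps.

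The genes around the members in the shedding pathway were read from lists chosen by function, 106 genes of which 79 were tested. None was called higher and 4 were called lower: NOTCH2, CDH2 and CD274 among the ADAM10 substrates, and HBEGF among the ADAM17 substrates. Over all tested genes 1.48% were called lower. Of the 79, 28 had a fold change above and 51 below 0, against 7092 of 14303 below 0 over all tested genes, and the median was -0.15 against 0.01. All 4 calls were lost without Ctrl replicate 1, where edgeR's adjusted p lay between 0.0574 and 0.106, and that of NOTCH2 also without Ctrl replicate 2 (edgeR adjusted p = 0.110).

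Among ADAM10 substrates 20 of 25 were tested, with 0 called higher, 3 called lower and a median log2 fold change of -0.14. NOTCH2, a Notch receptor, had 787 and 778 CPM in Ctrl and 479 and 461 CPM in shSTAU1 (log2 fold change -0.74, SE 0.12, edgeR adjusted p = 0.0357). CDH2, N-cadherin, had 124 and 110 CPM in Ctrl and 53.4 and 68.8 CPM in shSTAU1 (log2 fold change -0.94, SE 0.16, adjusted p = 0.0360 by edgeR). CD274, the immune checkpoint ligand PD-L1, fell from 16.7 and 12.8 CPM to 4.05 and 6.42 CPM (log2 fold change -1.49, SE 0.28, edgeR adjusted p = 0.0424). The 3 substrates of highest CPM did not pass the test. APP, the amyloid precursor, had a log2 fold change of -0.24 (95% interval -0.58 to 0.10), MET, the hepatocyte growth factor receptor, 0.06 (-0.34 to 0.47) and CD44, the hyaluronan receptor, 0.00 (-0.41 to 0.41).

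ADAM17 substrates numbered 27, of which 19 were tested, 15 with a fold change below 0 and a median of -0.26. HBEGF, a ligand of the EGF receptor that is released by shedding, had 36.3 and 25.4 CPM in Ctrl and 11.8 and 11.7 CPM in shSTAU1 (log2 fold change -1.39, SE 0.21, edgeR adjusted p = 0.0357). AREG, or amphiregulin, another such ligand and one of the 3 of highest CPM, varied more between replicates than between groups, with 655 and 400 CPM in Ctrl and 821 and 482 CPM in shSTAU1. PTPRF, a receptor phosphatase, and ALCAM, an adhesion molecule, had log2 fold changes of -0.28 and -0.26 (edgeR adjusted p = 0.317 and 0.229).

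No gene of the other lists was called. Of 16 other ADAM genes only 6 were tested, 5 of them with a fold change below 0 (median -0.53). The 3 of highest CPM were ADAM12, a fusion- and matrix-linked metalloprotease (46.5 and 66.9 CPM in Ctrl, 13.5 and 33.4 CPM in shSTAU1, log2 fold change -1.27, edgeR adjusted p = 0.102), and the non-proteolytic ADAM22 (-0.67, adjusted p = 0.196) and ADAM23 (0.87, adjusted p = 0.126). The 12 other partners of ADAM10 and ADAM17 had a median of -0.11, with ITGB1, the beta 1 integrin, at -0.47 (edgeR adjusted p = 0.0986), the scaffold DLG1 at -0.27 and the tetraspanin CD9 at 0.09. The 4 proprotein convertases, which activate the ADAM precursors, had a median of -0.22: FURIN was at 0.14, PCSK6 at -0.59 and PCSK7 at -0.64 (adjusted p = 0.561, 0.111 and 0.0763 by edgeR). On the list of sheddase inhibitors 6 of 7 were tested (median 0.23). TIMP3, the TIMP that inhibits ADAM17, had a log2 fold change of 0.40 (adjusted p = 0.221 by edgeR) and TIMP1 -0.20. That list and its median also hold CST3 (0.41), which encodes cystatin C, an inhibitor of cysteine proteases and not of metalloproteases. Gamma-secretase subunits (6 of 6 tested) had a median of 0.08, and the other membrane sheddases (6 of 9 tested) one of -0.55, all 6 below 0, with MMP14, the most abundant of them, at -0.01.

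**Figure D4:**
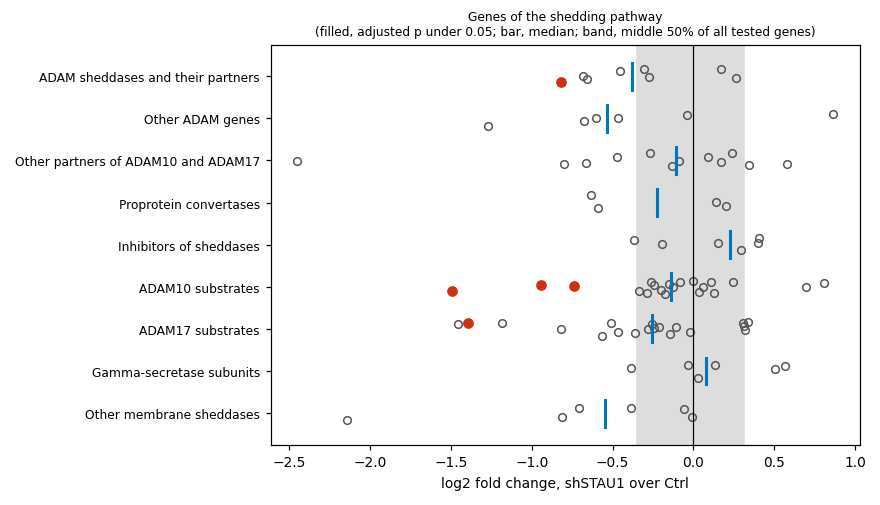
Log2 fold change (shSTAU1 over Ctrl, horizontal axis) of each tested gene of the 9 lists, 1 row a list; filled red points have an adjusted p under 0.05, blue bars are list medians and the grey band holds the middle 50% of all tested genes. The 5 filled points, ADAM9, NOTCH2, CDH2, CD274 and HBEGF, all lie below 0.

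The genes whose profile over the 4 libraries was most like that of ADAM10 were found by the Euclidean distance between centred log2 CPM values among 4784 genes with a mean log2 CPM of at least 5. They were MACF1, a cytoskeletal linker (distance 0.0988), LOXL2, a lysyl oxidase (0.106), PLAU, the urokinase (0.106), FNDC3B (0.118) and DENND4A (0.130). With 4 libraries the measure describes these samples and carries no test. Like ADAM10, all 5 had a higher level in replicate 1 than in replicate 2 of each group. This follows from their choice by distance over the same 4 libraries and is no separate finding. None of the 5 was called by edgeR, with adjusted p between 0.0631 and 0.119.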

How the data were processed

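RNA-seq was read from 1 table of gene counts for 4 libraries (2 Ctrl, 2 shSTAU1), which the authors deposited as raw counts per Ensembl gene. Per the labels, the submitters' processing notes name Partek and the hg38 build; the aligner, the counter and its strand setting are not given in the sources used here. The study's methods state no test for these libraries. Counts were tested with edgeR 4.0.16 (R 4.3.3; filterByExpr, TMM, quasi-likelihood F test, design of group alone) on all 14303 genes that passed the filter, p-values adjusted by Benjamini-Hochberg, and calls made under 0.05. The biological coefficient of variation was 19.1%. The second copies of pseudoautosomal genes were dropped, leaving 66963 of 67008 genes. SE is the fold change divided by the square root of F, with 95% intervals to match. The fit was tested on simulated data. The alternatives were library-size scaling, DESeq2 1.42.0, limma-voom (limma 3.58.1), no filter, a replicate block, a length and GC correction (99.0% of tested genes had both values), that correction with the block, and leaving out each library. Lengths, UTRs and positions came from GENCODE 29, and 58516 of the table's identifiers were found in it. Named genes were the 8 members, STAU1, SNX5, each pathway-list gene past the threshold, at most 3 genes of highest CPM per list and the 5 most like ADAM10; 1 gene and 1 sequence are not reported here. The members and lists were chosen with earlier results of these data known.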

Additional observations from a re-analysis of the deposited data

How the results depend on the processing

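With 2 libraries a group the count of calls depended strongly on the fit. Over all tested genes it was 372 (161 higher, 211 lower); with library-size scaling 404 (132 higher, 272 lower), with limma-voom 363, with the length and GC correction 300, with DESeq2 1449 (773 higher, 676 lower), without a filter 11, and, leaving out 1 library, 214 to 2625 (lowest without Ctrl replicate 1, highest without shSTAU1 replicate 1). Of the members, 1 was called; DESeq2 called 2, the unfiltered fit 0, and leaving out 1 library gave 0 to 3 (0 without Ctrl replicate 1, 3 without shSTAU1 replicate 1). Of the pathway genes, 4 were called, against 10 by DESeq2, 0 without a filter and 1 to 24 when 1 library was left out. Replicate numbers are shared by the groups, but the labels tie them to no batch; deviations of same-numbered libraries correlated at 0.271 over all tested genes and at 0.587 over those with a mean log2 CPM of at least 5. With the replicate block 4087 genes, 4 members and 32 pathway genes were called, and 3459, 4 and 28 once libraries were also corrected for length and GC. The 4 members were ADAM10, ADAM9, ADAM15 and TSPAN15 (edgeR adjusted p = 1.43e-08, 5.16e-12, 0.0329 and 0.0264 with the block, and 0.00147, 8.49e-05, 0.0409 and 0.0154 with both). The block leaves 1 residual degree of freedom, so these p-values lean on the spread shared over genes. ADAM10 was at -0.69 with the block and -0.56 with both. ADAM10 was also past the threshold with DESeq2 (-0.69) and ran from -0.95 to -0.48 when 1 library was left out. A fit without 1 library leaves 1 library in that group, so the spread behind its calls comes from the other group alone. STAU1 was called under every setting, from -2.64 to -2.56. No filter or scaling changed the sign of a member's fold change.

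The fold changes that changed sign belonged to genes not called with all 4 libraries. CD44 was at -0.051 with library-size scaling, -0.0024 with DESeq2, -0.0037 with limma-voom, -0.0075 without a filter and -0.0034 with the block; CD9 was at -0.00091 with the block and the correction. Leaving out 1 library gave ranges across 0 for ADAM17 (-0.0057 to 0.32), RHBDF2 (-0.83 to 0.86), TIMP1 (-0.42 to 0.056), MMP14 (-0.45 to 0.31), CD9 (-0.38 to 0.46), MET (-0.17 to 0.24), CD44 (-0.21 to 0.16), AREG (-0.13 to 0.69) and NCSTN (-0.13 to 0.038). Over 37 of the named genes (the 5 most like ADAM10 and the genes named after their values were seen were not rerun) and 11 settings, 326 of 407 values kept their sign and side of the threshold. The causes were not tested.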

Other observations

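ADAM9 had its own set of like profiles, looked up after its values were seen and by the same distance over the 4 libraries. The closest genes were ACSL3, a fatty acid ligase (distance 0.0501), ZNF267 (0.0550), CDCP1, a transmembrane glycoprotein of carcinoma cells (0.0677), ANO10 (0.0786) and FHOD3 (0.0823), none of which was among the 5 closest to ADAM10.

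Among the 10 squamous markers 2 were called, both higher in shSTAU1, and over all tested genes 1.13% were called higher. The log2 fold changes of the 10 ran from -0.29 to 1.43 (median 0.21), with 8 above and 2 below 0. KRT5, a basal keratin, had 3236 and 3387 CPM in Ctrl and 5488 and 4893 CPM in shSTAU1 (log2 fold change 0.65, edgeR adjusted p = 0.0408), and SFN, an epithelial 14-3-3 protein, had 38.4 and 27.1 CPM against 92.1 and 84.3 CPM (log2 fold change 1.43, edgeR adjusted p = 0.0285). COL1A1, a collagen gene on the fibroblast list, was lower in shSTAU1 at 7.84 and 6.25 CPM against 15.7 and 20.2 CPM (log2 fold change -1.35, edgeR adjusted p = 0.0360), whereas COL1A2 on the same list lay higher in shSTAU1, at 2.15 and 3.62 CPM against 1.19 and 1.68 CPM, without passing the test (log2 fold change 1.01, edgeR adjusted p = 0.185). The part of these differences in the levels of the members was not tested.

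The lowest fold changes on the pathway lists belonged to genes with few counts, named here after their values were seen. TSPAN10, a tetraspanin that can bind ADAM10, had 12 and 20 counts in Ctrl and 2 and 4 in shSTAU1 (edgeR adjusted p = 0.114), and MMP16, a membrane metalloprotease, had 14 and 12 against 6 and 0 (edgeR adjusted p = 0.260).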
